A study of Mus musculus with 16 samples.

Results

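The Sox family was described here through 10 of its genes, Sox1, Sox2, Sox3, Sox4, Sox5, Sox6, Sox9, Sox11, Sox12 and Sox21, in single cells of the embryonic mouse forebrain. They were taken by name, with earlier results of these data known, and all 10 were among the 14498 genes measured. Sox proteins are transcription factors that hold DNA through a shared domain, the HMG box, which fits into the minor groove and bends the helix. In the developing forebrain the SoxB1 genes (Sox1, Sox2, Sox3) are known for keeping neural progenitors in their state, and the SoxB2 gene Sox21 for opposing them. Sox9, a SoxE gene, is known for neural stem cells and glia. The SoxC genes (Sox4, Sox11, Sox12) are known for switching on neuronal genes in newborn neurons. The SoxD genes are known for neuron identity, Sox5 in deep layer projection neurons and Sox6 in interneurons from the medial ganglionic eminence and in cortical progenitors.

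The 16 samples all came from forebrain of CD1 mice, an outbred stock, at embryonic day 15.5, labelled wild type and given no treatment in the labels. Their titles combine 4 numbers with 4 codes beginning with L, and the labels do not say how many embryos stand behind them. The samples form 1 group, and their cells were deposited as 1 matrix of 5777 cells in which no sample, embryo or sex is marked. So no replicate could be separated, no test across embryos was possible, and every interval below is a 95% interval for counting error alone. Counts are unique molecular identifiers (UMIs), 1 for each captured RNA molecule, and levels are CPM, the UMIs of a gene per 1000000 UMIs of the same class of cells.

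The 10 genes share the HMG box, and its coding sequence was compared between them. The box was taken as a window of 222 coding bases, placed by a short run of residues that all 10 share. It was not taken from a domain annotation, so its ends may differ from those of the annotated domain. Sequence outside this window was not compared. The first 60 bases of the box are printed for 6 members, from GENCODE M21 transcripts on mm10, because these 6 make up 3 closely related pairs on which the results turn. Capitals mark bases that differ from Sox2.
Sox2 (chr3:34650548-34650607, plus strand): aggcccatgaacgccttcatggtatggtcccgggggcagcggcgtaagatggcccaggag
Sox1 (chr8:12396517-12396576, plus strand): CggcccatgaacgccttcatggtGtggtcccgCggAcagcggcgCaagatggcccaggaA
Sox4 (chr13:28952782-28952841, minus strand): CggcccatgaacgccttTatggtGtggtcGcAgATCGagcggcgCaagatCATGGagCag
Sox11 (chr12:27342199-27342258, minus strand): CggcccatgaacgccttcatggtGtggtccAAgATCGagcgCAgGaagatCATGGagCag
Sox5 (chr6:143841214-143841273, minus strand): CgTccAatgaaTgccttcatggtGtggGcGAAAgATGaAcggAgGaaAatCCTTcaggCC
Sox6 (chr7:115489703-115489762, minus strand): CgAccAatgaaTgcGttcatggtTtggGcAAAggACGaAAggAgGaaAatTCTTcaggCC

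Over the window of 222 coding bases, Sox1 and Sox2 were the most alike of the 45 pairs of members, with 89.6% identical bases. That was 199 bases, against 198 for Sox1 and Sox3 and for Sox4 and Sox11. Sox4 and Sox11 shared 89.2% and Sox5 and Sox6 82.4%, against 56.3% for the least alike pair, Sox6 and Sox9. The differences in Sox5 and Sox6 number 23 and 24 of the 60 bases printed, those in Sox4 and Sox11 16 and 17, and those in Sox1 6. The SoxB, SoxC and Sox9 genes are short, the single-exon genes Sox1, Sox2, Sox3, Sox4, Sox11, Sox12 and Sox21 and the 3-exon gene Sox9 spanning 2057 to 8311 bases. Sox5 spans 953553 bases and Sox6 567925. A noncoding gene, Sox2ot, lies over Sox2 on the same strand by gene span. Whether their exons share bases was not checked. Genes over Sox1, Sox4, Sox5, Sox6 and Sox21 in the annotation were not rows of the matrix, and no source used here states whether counting used strand.

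The cells had 1111 to 17398 UMIs each with a median of 3258, and 24 clusters were drawn without the Sox genes. Marker genes named 19 clusters, and class names ending in -like say only that cells resemble the class by those markers. The 5 unnamed clusters held 953 cells, which are in no class level or ratio. Among them, cluster 13 (234 cells, led by Rrm2) matched intermediate progenitor markers best. Cluster 17 (173 cells, led by Ccnb1) matched radial glia markers best. Radial glia-like cells numbered 611, intermediate progenitor-like cells 369, migrating excitatory neuron-like cells 963 and older excitatory neuron-like cells 1198. The older cells comprised 954 deep layer neuron-like cells and 1 further cluster of 244 cells. On the ventral side were 529 ganglionic eminence progenitor-like, 298 striatal neuron-like and 465 Sst and Lhx6 interneuron-like cells. A further ventral cluster of 240 cells had 3 markers of the basal forebrain list and 2 of the Sp8 and Adarb2 interneuron list among its 10 leading genes. It took the basal forebrain name by its markers, and for its mixed markers it is called the Zic and Sp8 cluster here. Y-linked UMIs stop at cell 3651 and 11 genes have UMIs only from cell 3656 on, which splits the matrix into 2 unlabelled stretches of 3651 and 2122 cells. The stretches hold the classes in unlike proportions, with 278 of the 298 striatal neuron-like cells in the first. Ganglionic eminence progenitor-like clusters 6 and 16 had only 14 and 17 cells in the second. The further excitatory cluster had 224 of its 244 cells there. So a Sox ratio with at least 50 UMIs in each stretch is given for both where the stretches differ by over 1.5 times. The 18 microglia-like cells, immune cells that should lack these genes, served as the reference for free RNA. Sox11 stood there at 852 CPM, 9.78% of its level in all cells, Sox4 at 11.5% and Sox2 at 10.3%, on 60, 8 and 2 UMIs.

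Sox RNA was abundant, and most of it was Sox11. The 10 members gave 240646 UMIs, 1.114% of all UMIs, and Sox11 alone gave 188073 of these, the largest count of any gene in the matrix. Sox4 followed with 21402 UMIs, Sox5 with 9857, Sox2 with 5959, Sox9 with 3879, Sox12 with 3470, Sox1 with 2837, Sox6 with 2542, Sox21 with 1397 and Sox3 with 1230. Per kilobase of the longest annotated transcript Sox11 had 22629 UMIs and ranked 36 of 13955 genes with a length, Sox4 4463 and Sox2 2897, and Sox2 passed Sox5, which had 1361. Whether UMIs scale with transcript length in this assay was not tested. Sox11 had a UMI in 98.6% of cells, Sox4 in 82.1%, and Sox3 in 12.7%. The 7 other Sox genes in the matrix gave 469 UMIs together, of which Sox13 held 186 and Sox8 168.

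**Figure D1:**
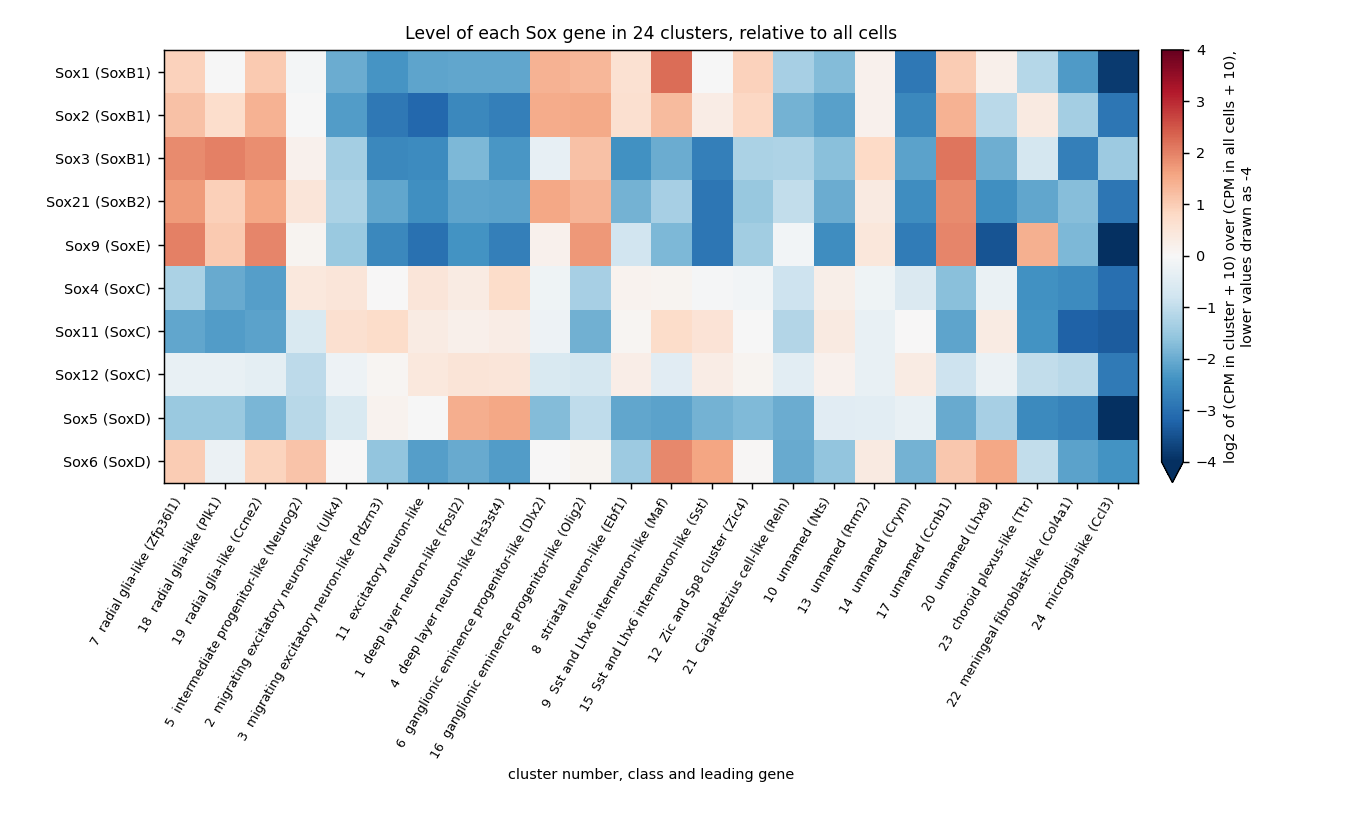
Level of each of the 10 Sox genes (rows, with their group) in each of the 24 clusters (columns, with class and, in all but cluster 11, leading gene), as log2 of CPM in the cluster over CPM in all cells after adding 10 CPM to each. Red is above and blue below the level in all cells. Sox1, Sox2, Sox3, Sox21 and Sox9 were red in the 3 radial glia-like clusters, with Sox1 near the all-cell level in cluster 18, Sox5 was red in the 2 deep layer neuron-like clusters, and Sox6 was reddest in the 2 Sst and Lhx6 interneuron-like clusters.

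Among the named classes, the SoxB1 gene Sox2, the best known factor of neural progenitors (mm10 chr3:34650405-34652461), was highest in the progenitors of both territories. It stood at 794 CPM (754 to 835) in ganglionic eminence progenitor-like cells and at 639.6 CPM (605 to 675) in radial glia-like cells. It remained at 506 CPM (466 to 549) in Sst and Lhx6 interneuron-like cells, 496 CPM in the Zic and Sp8 cluster and 436 CPM (391 to 485) in striatal neuron-like cells, with overlapping intervals between neighbours in that order. The interneuron-like class was uneven, and its Maf-led cluster 9 lay above the radial glia-like level, as given below with Sox1. Intermediate progenitor-like cells had 274 CPM. Migrating and older excitatory neuron-like cells had 39.4 and 32.7 CPM, 14.3% and 11.9% of the level in all cells, where microglia-like cells had 10.3%. So among the neuron classes the ventral ones kept Sox2 RNA and the cortical excitatory ones were near the microglia-like level, which rests on 2 UMIs. The part of free RNA in the excitatory level was not tested. After every cell was thinned to 1000 UMIs, 46.3% of ganglionic eminence progenitor-like cells (42 to 50.7) and 41.6% of radial glia-like cells (37.6 to 45.6) had a Sox2 UMI, against 3.67% of excitatory neuron-like cells and 0 of 18 microglia-like cells (interval up to 18.5%). Without thinning these shares were 78.8, 68.9, 9.68 and 11.1%, at median depths of 3184, 2912, 4405 and 3879.5 UMIs.

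Sox1 (chr8:12395295-12400126), the SoxB1 gene also known in ventral forebrain neurons, was in the same territories, in ventral neurons as in progenitors. Sst and Lhx6 interneuron-like cells held 392 CPM (356 to 429.96), ganglionic eminence progenitor-like cells 351 CPM (325 to 379), with overlapping intervals. Below these the Zic and Sp8 cluster had 257 CPM, radial glia-like cells 249 CPM (227 to 271) and striatal neuron-like cells 204 CPM (174 to 238), neighbours whose intervals overlapped. Intermediate progenitor-like cells had 123 CPM. The interneuron level was not even. Cluster 9, led by Maf, had 657 CPM (592 to 728) and cluster 15, led by Sst, 129 CPM (102 to 163), and the intervals were far apart. Sox2 showed the same order, at 677 and 338 CPM. The stretches differed as well, with 509 CPM of Sox1 in the first and 239 CPM in the second. Ganglionic eminence progenitor-like cells had 350.02 and 379 CPM, the latter on 14 cells of cluster 6 and 17 of cluster 16. So which of these classes was higher depended on the stretch, with few such progenitor-like cells in the second. Here cluster 9 lay mostly in the first stretch (202 of 261 cells) and cluster 15 mostly in the second (134 of 204). Radial glia-like cells had 193 CPM in the first stretch and 313 CPM in the second. Excitatory neuron-like cells had 23.4 CPM and migrating cells 21.2 CPM. Microglia-like cells had 0 Sox1 UMIs, which allows up to 42.6 CPM.

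Sox3 (chrX:60891366-60893430), the X-linked SoxB1 gene, was highest in dorsal progenitors. Radial glia-like cells had 239.8 CPM (219 to 262), with 243 and 236 CPM in the stretches. Ganglionic eminence progenitor-like cells had 82.9 CPM (70.3 to 97), and that class was uneven, with 43.2 CPM in cluster 6, led by Dlx2, and 142 CPM in cluster 16, led by Olig2. Intermediate progenitor-like cells followed with 66.1 CPM (52.2 to 82.6), whose interval overlapped that of the eminence. Interneuron-like, striatal neuron-like and excitatory neuron-like cells had 4, 2 and 30 UMIs in all, or 3.52, 2.52 and 5.57 CPM. So where Sox1 and Sox2 stood at 204 CPM or more in each ventral neuron class, Sox3 stood at 17.7 CPM or less.

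Sox21 (chr14:118233232-118237030), the SoxB2 gene, was present in progenitors of both territories and low in neurons. Radial glia-like cells had 209 CPM (189 to 229) and ganglionic eminence progenitor-like cells 197 CPM (178 to 219), with overlapping intervals. Intermediate progenitor-like cells had 94.4 CPM (77.6 to 114). The 2 excitatory and 3 ventral neuron classes ranged from 6.5 to 16.2 CPM on 8 to 45 UMIs each, and Cajal-Retzius cell-like cells had 27.7 CPM on 9 UMIs. The highest of all clusters was cluster 17, an unnamed cluster led by the mitotic gene Ccnb1, with 264 CPM (232 to 299), and the same cluster was highest for Sox3 with 288 CPM (255 to 324).

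Sox9 (chr11:112782224-112787760), the SoxE factor of neural stem cells and glia, had, after Sox3, the largest excess in dorsal over ventral progenitors. Radial glia-like cells had 690.1 CPM (654 to 727) and ganglionic eminence progenitor-like cells 369.6 CPM (342 to 398). Within the eminence the Olig2-led cluster 16 had 619.7 CPM (565 to 679) and the Dlx2-led cluster 6 202 CPM (176 to 229.7). The interval of cluster 16 overlapped that of radial glia-like cells, so the excess lay mostly against cluster 6. Choroid plexus-like cells, 25 in number, had 492 CPM (379 to 629) and Cajal-Retzius cell-like cells 166 CPM (125 to 217). Neurons of the cortex had 39 CPM when migrating and 21.2 CPM (17.5 to 25.4) when older, and interneuron-like cells 29.9 CPM. The older excitatory cells had 30.9 CPM in the first stretch and 12.2 CPM in the second, and microglia-like cells 0 UMIs.

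**Figure D2:**
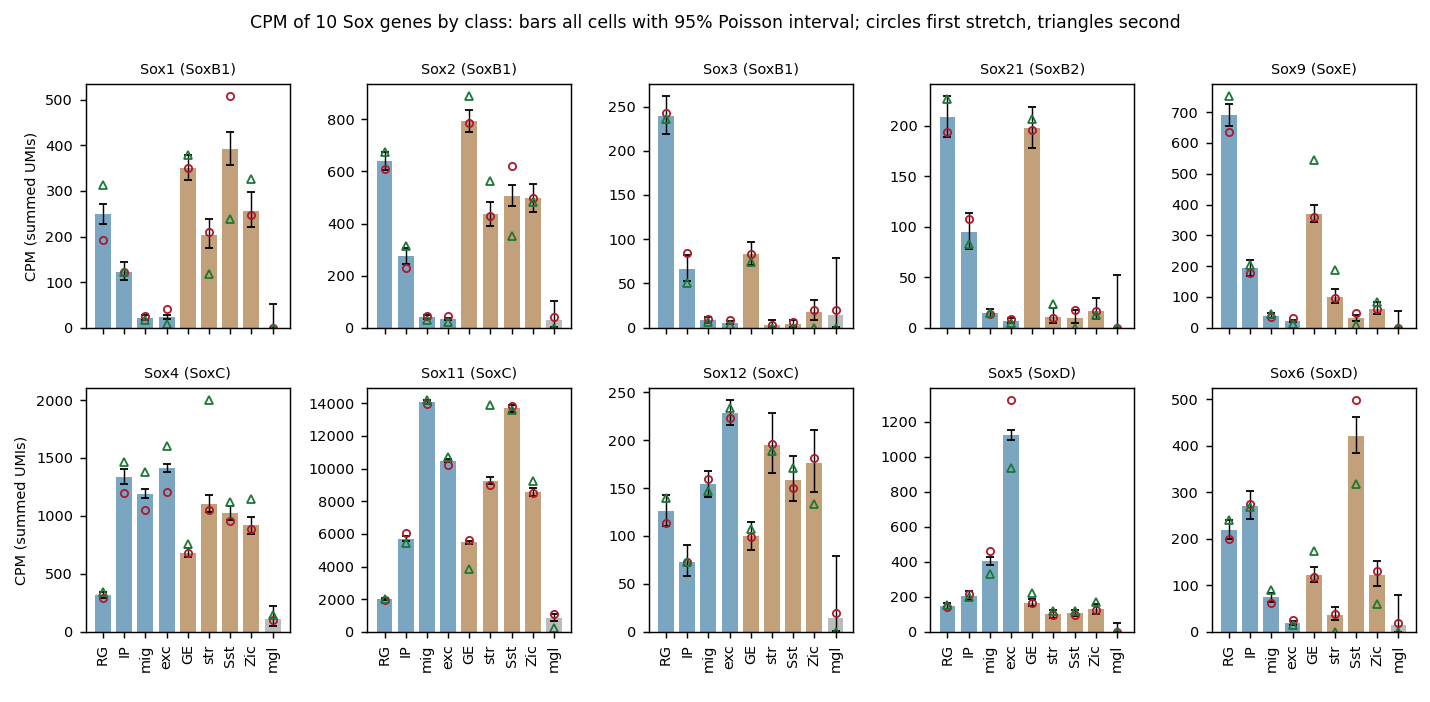
CPM of the 10 Sox genes in 9 classes, 1 panel a gene, each with its own vertical axis from 0. Bars are all cells of a class with their 95% Poisson interval, red circles the first and green triangles the second stretch of the matrix; RG is radial glia-like, IP intermediate progenitor-like, mig migrating and exc older excitatory neuron-like, GE ganglionic eminence progenitor-like, str striatal neuron-like, Sst Sst and Lhx6 interneuron-like, Zic the Zic and Sp8 cluster and mgl microglia-like. Sox3, Sox21 and Sox9 bars were tall in progenitors, Sox11 bars in neurons, and the tall Sox5 and Sox6 bars stood over different neuron classes.

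Sox11 (chr12:27334264-27342574), a SoxC gene, was higher in neurons than in radial glia and had the largest counts in each of the 8 main classes. It went from 1987 CPM (1926 to 2049.5) in radial glia-like cells to 5710.2 CPM in intermediate progenitor-like cells and 14069 CPM (13939 to 14199) in migrating excitatory neuron-like cells, its highest class. Sst and Lhx6 interneuron-like cells had 13694 CPM (13479.5 to 13911), just below and with no overlap. Older excitatory neuron-like cells had 10479 CPM, striatal neuron-like cells 9251 CPM and the Zic and Sp8 cluster 8569 CPM. In the migrating class the stretches gave 13984 and 14181 CPM, on either side of the pooled level. Among the ganglionic eminence progenitor-like cells, the Dlx2-led cluster 6 had 7626 CPM and the Olig2-led cluster 16 2294 CPM, the latter near the radial glia-like level.

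Sox4 (chr13:28948919-28953713) reached its plateau earlier, in the intermediate progenitor-like cells. Radial glia-like cells had 315 CPM (291 to 341), intermediate progenitor-like cells 1339 CPM (1274 to 1407), migrating cells 1192 CPM (1155 to 1231) and older excitatory cells 1413 CPM (1382 to 1445). The highest cluster was the Hs3st4-led deep layer cluster 4 with 1658 CPM. In the 4 ventral classes Sox4 ran from 681 CPM in progenitors to 1104 CPM in striatal neuron-like cells. Its level was higher in the second stretch than in the first in all 8 main classes, for example 1381 against 1049 CPM in migrating cells, while the order of the cortical classes kept radial glia-like cells lowest in each.

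Sox12 (chr2:152393611-152398063) varied least from its highest to its lowest main class. Its highest main class, older excitatory neuron-like cells, had 229 CPM (216 to 242) and its lowest, intermediate progenitor-like cells, 73 CPM (58.3 to 90.2). Radial glia-like cells lay between at 126 CPM, so the step out of radial glia went down for Sox12 and up for Sox4 and Sox11. After thinning, 99.9% of migrating and 82.7% of radial glia-like cells had a UMI of at least 1 of the 3, and 44.4% of the 18 microglia-like cells did.

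RefSeq windows of 250 bases upstream of a start site (GRCm38.p6) were searched on both strands for 4 motifs. These were the E-boxes CAGCTG and CAGATG, site types of proneural bHLH factors, the SOX core ACAAAG and the octamer ATGCAAAT, and 13%, 14.4%, 16.5% and 1.6% of 32851 windows of that length hold at least 1. The windows of Sox4 and Sox11, the SoxC genes called higher from radial glia-like to intermediate progenitor-like cells, are printed. Each holds 1 CAGCTG, in capitals, and 0 copies of the other 3 motifs. None of the single windows of Sox1, Sox2, Sox5, Sox12 and Sox21 had a CAGCTG, 1 of 6 Sox6 windows did, and Sox3 and Sox9 had no entry. A match is a description of these letters and not of binding.
Sox4 (chr13:28953700-28953949, minus strand): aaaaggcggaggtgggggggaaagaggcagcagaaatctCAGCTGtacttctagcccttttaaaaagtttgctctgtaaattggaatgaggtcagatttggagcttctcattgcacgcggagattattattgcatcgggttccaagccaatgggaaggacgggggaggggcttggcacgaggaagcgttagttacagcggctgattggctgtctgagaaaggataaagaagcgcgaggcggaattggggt
Sox11 (chr12:27342719-27342968, minus strand): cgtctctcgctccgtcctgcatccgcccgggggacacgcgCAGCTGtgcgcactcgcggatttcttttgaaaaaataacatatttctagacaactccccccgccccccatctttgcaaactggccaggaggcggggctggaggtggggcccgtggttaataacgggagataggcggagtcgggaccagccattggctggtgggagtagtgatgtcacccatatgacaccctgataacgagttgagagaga

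The SoxD genes had opposite patterns, and Sox5 (chr6:143828425-144781977) was the member of deep layer neurons. Deep layer neuron-like cells had 1301 CPM (1267 to 1336) and migrating cells 404 CPM (382 to 427). The deep layer level was 1347 CPM in the first stretch and 1236 CPM in the second. Both deep layer clusters were alike, with 1254 CPM in the Fosl2-led cluster 1 and 1363 CPM in the Hs3st4-led cluster 4, and Sox5 was among the 10 leading genes of cluster 1 though it was not used to draw it. Unnamed neuron clusters led by Nts and by Crym had 327 and 373 CPM. Intermediate progenitor-like cells had 205 CPM, radial glia-like cells 146 CPM, interneuron-like cells 106 CPM and striatal neuron-like cells 99.6 CPM, and microglia-like cells had 0 UMIs. After thinning, 69.6% of deep layer neuron-like cells (66.6 to 72.5) had a Sox5 UMI, against 7.53% of interneuron-like cells. Unthinned shares were 93.8 and 16.1% at median depths of 4386 and 2277 UMIs.

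Sox6 (chr7:115470872-116038796) was high in interneurons and, apart from them, in cortical progenitors. Sst and Lhx6 interneuron-like cells had 422 CPM (385 to 461), and there the stretches gave 498 and 317 CPM. Intermediate progenitor-like cells had 271 CPM (242 to 303) and radial glia-like cells 218 CPM (199 to 239.8), above the 122 CPM (107 to 139) of ganglionic eminence progenitor-like cells. Levels were 74 CPM in migrating, 19.1 CPM in older excitatory and 36.6 CPM in striatal neuron-like cells. The Lhx8-led unnamed cluster 20, whose 85 cells all lay in the first stretch and which also had Nkx2-1 and Lhx6 among its leading genes, had 362 CPM of Sox6 and 127 CPM of Sox2. After thinning, 29.9% of interneuron-like cells (25.8 to 34.3) had a Sox6 UMI and 1.42% of excitatory neuron-like cells (0.829 to 2.26), and without thinning 50.1 and 5.76%.

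**Figure D3:**
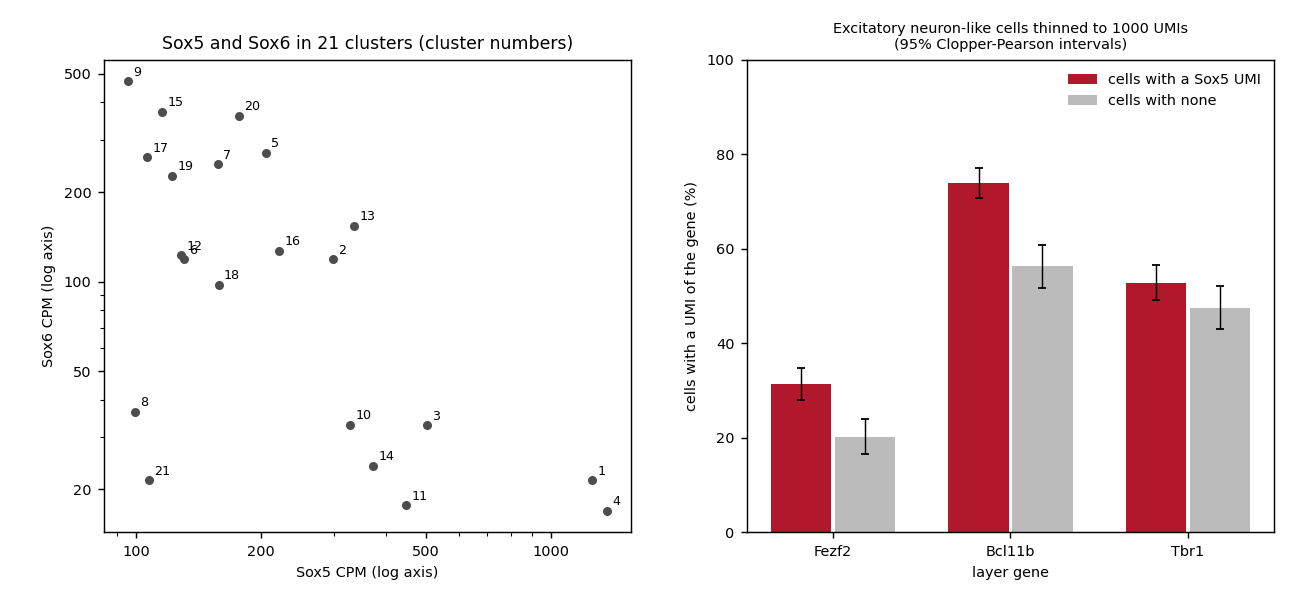
Left, CPM of Sox5 against CPM of Sox6 on log axes in the 21 clusters of at least 30 cells, marked by cluster number; clusters 1 and 4 are deep layer neuron-like and 9 and 15 Sst and Lhx6 interneuron-like, and they sit at opposite corners. Right, share of excitatory neuron-like cells with a UMI of Fezf2, Bcl11b or Tbr1 among cells with and without a Sox5 UMI, with 95% Clopper-Pearson intervals; the intervals are apart for all but Tbr1.

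The first comparison asked what changes from radial glia to intermediate progenitors, the first step of indirect neurogenesis in the cortex. All 10 members had at least 50 UMIs over both classes, the minimum for a ratio, and those at least 1.5 times higher or lower were counted as called. Sox4 was 4.25-fold higher (3.87 to 4.67) and Sox11 2.87-fold higher (2.76 to 2.99) in intermediate progenitor-like cells. Sox3 was 3.63-fold lower (2.85 to 4.68), Sox9 3.59-fold (3.11 to 4.15), Sox2 2.34-fold (2.06 to 2.65), Sox21 2.21-fold (1.79 to 2.75), Sox1 2.03-fold (1.68 to 2.46) and Sox12 1.72-fold (1.34 to 2.23). So 2 members were called higher and 6 lower, where 14.3% of 8559 measured genes were higher and 20.6% lower. The median log2 ratio was -0.90 over the members and -0.03 over all measured genes. In the first and second stretch Sox3 was 2.9 and 4.69-fold, Sox21 1.79 and 2.74-fold and Sox1 1.58 and 2.54-fold lower. The Sox12 call was kept in 8 of 12 alternatives and the other 7 calls in all 12. Sox5 and Sox6 were 1.41 and 1.24 times the radial glia-like level and were not called.

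Genes that work with Sox factors were counted from 6 lists of 46 genes, of which 17 were also markers used to name classes, so their direction is in part built into the class names. Of the 7 SoxC partners and targets, 6 were called higher and 0 lower in intermediate progenitor-like cells, with a median log2 ratio of 1.5. Neurog1, a proneural bHLH factor and one of those markers, was 9.58-fold higher (6.75 to 13.9). Of 12 measured SoxB1 partners and targets, 3 were higher and 5 lower. They split between Nes, the progenitor intermediate filament gene, at 5.26-fold lower (4.24 to 6.61) and the POU factor Pou3f1 at 13.9-fold higher (9.68 to 20.4). Of 4 measured SoxE partners and targets 1 was lower. Sox13, a SoxD gene outside the 10, was 11.1-fold lower (4.17 to 41.8), from 38.1 to 3.43 CPM.

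The second comparison followed intermediate progenitors into migrating neurons, and here SoxB, SoxE and Sox6 RNA was lower and that of Sox11, Sox12 and Sox5 higher. Sox3 was 7.84-fold lower (5 to 12.6), Sox2 6.96-fold (5.64 to 8.62), Sox21 6.72-fold (4.71 to 9.73), Sox1 5.78-fold (4.3 to 7.83), Sox9 4.93-fold (3.94 to 6.18) and Sox6 3.66-fold (3.09 to 4.36) in migrating cells. The Sox2 ratio was 4.95-fold lower in the first stretch and 10.3-fold in the second. Sox11 was 2.46-fold higher (2.4 to 2.53), Sox12 2.11-fold (1.67 to 2.69) and Sox5 1.97-fold (1.71 to 2.27), while Sox4 was 0.89 times its former level and not called. These 3 higher and 6 lower members stood against 13.5% and 15.4% of 8695 genes, with a median log2 ratio of -2.09 against -0.07. The migrating levels of Sox2 and Sox1 were 14.3% and 16.2% of those in all cells. Microglia-like cells had 10.3% for Sox2, on 2 UMIs, and 0 UMIs of Sox1, and the part of free RNA was not tested. The Sox5 and Sox12 calls were each kept in 10 of 11 alternatives and the other 7 in every alternative that gave a ratio. Of the 7 SoxC partners and targets 4 were higher and 3 lower, among them Neurog1, 64.1-fold lower (33.1 to 142). Of the 12 measured SoxB1 partners and targets 1 was higher and 8 lower, with a median log2 ratio of -1.06 and Hes5, a Notch target, lower by 20.5-fold (16.6 to 25.7). Bcl11b and Tbr1, layer factors and class markers, were 4.3-fold (3.76 to 4.93) and 3.44-fold (2.99 to 3.97) higher.

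From migrating to older excitatory neurons, Sox5 was the 1 member called higher. It went from 404 to 1122 CPM, 2.78-fold (2.61 to 2.95), with 2.87 and 2.84 in the stretches, and this held in 11 of 11 alternatives. Of the older cells, deep layer neuron-like cells had 1301 CPM of Sox5. The further cluster of 244 cells had 448 CPM, near the migrating level, so the rise lay mostly in the deep layer neuron-like cells. Of those 244 cells, 20 lay in the first stretch and 224 in the second, so the older class differed in makeup between the stretches. The part of that makeup in the stretch ratios below was not tested. Sox6 was 3.87-fold lower (3.06 to 4.92), 2.55-fold in the first stretch and 6.27-fold in the second. Sox21, Sox9 and Sox3 were 2.16-fold (1.36 to 3.46), 1.84-fold (1.42 to 2.4) and 1.51-fold (0.865 to 2.63) lower, on levels of at most 39.04 CPM at the start. Sox11 was 0.745 times its migrating level (0.736 to 0.754), Sox4 1.19 times and Sox12 1.49 times, none past 1.5-fold, though Sox12 passed it in 5 alternatives. So 1 member was higher and 4 lower, with a median log2 ratio of -0.35 against -0.03 over all genes. Of 9868 measured genes 15.8% were higher and 13% lower. The Sox9 ratio was 0.908 in the first stretch and 0.267 in the second, so its call rests on the second. The Sox9 call was kept in 9 of 11 and the Sox21 call in 6 of 7 alternatives, and Sox3 passed the minimum in only 2, with an interval that includes no change. Of the 5 deep layer partners of SoxD, all class markers, 3 were higher and 0 lower. Tle4, a corepressor of corticothalamic neurons, was higher by 2.7-fold (2.39 to 3.06). Npy, the neuropeptide Y gene and an interneuron marker, was 3.63-fold higher, from 9.99 to 36.2 CPM. Neurod1 was 11.7-fold lower (10.6 to 12.9) and Neurog2 4.21-fold lower (3.66 to 4.85).

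**Figure D4:**
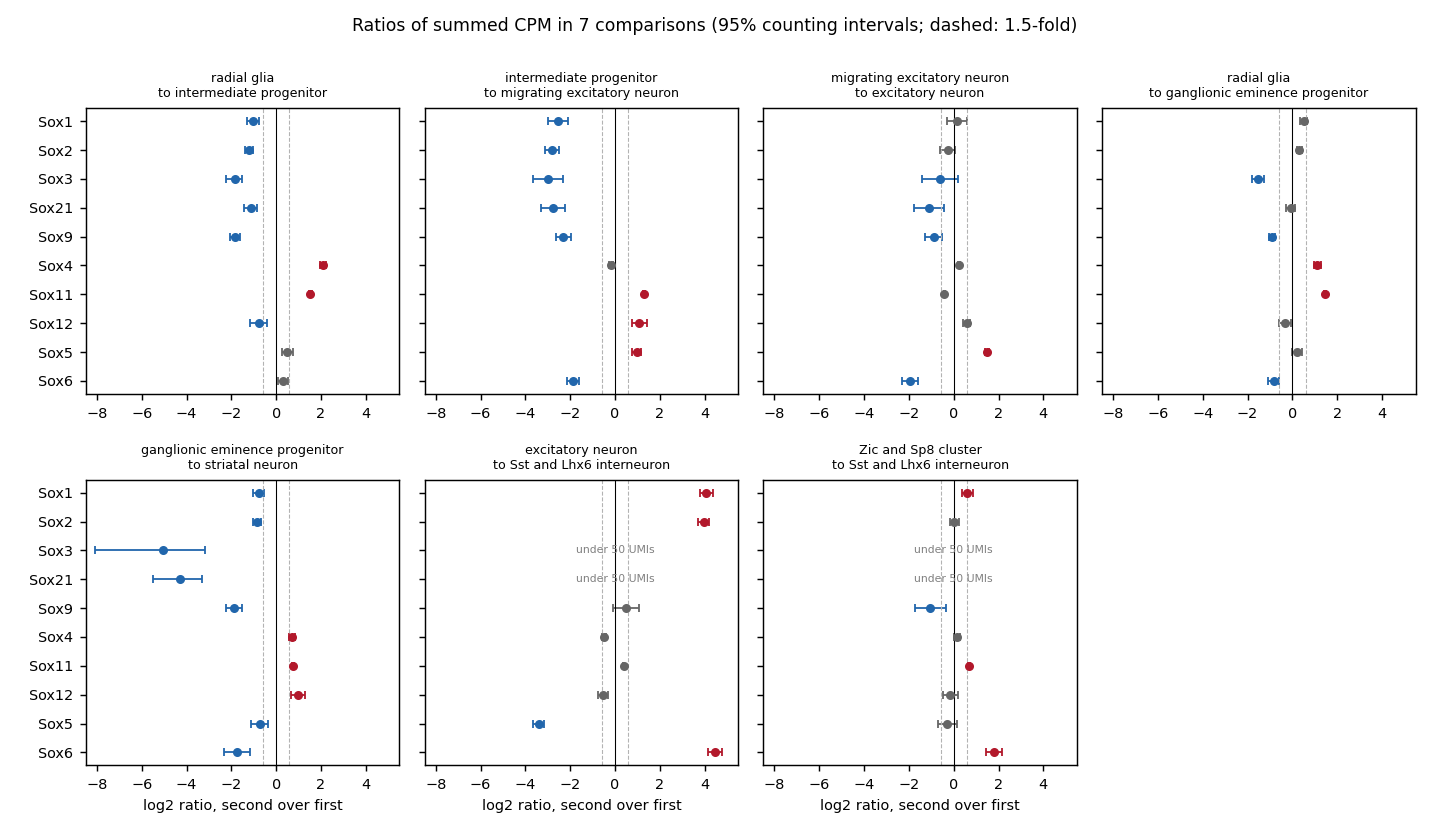
Log2 ratio of CPM, second class over first, of the 10 Sox genes in 7 comparisons, with 95% counting intervals; dashed lines mark 1.5-fold, red points are at least that much higher and blue points lower, and members under 50 UMIs over both classes are written as such. Sox4 and Sox11 lie right and Sox1, Sox2, Sox3, Sox21 and Sox9 left of 0 in the step from radial glia-like to intermediate progenitor-like cells, and Sox5 and Sox6 lie on opposite sides between excitatory neuron-like and interneuron-like cells.

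The dorsal and ventral progenitors were then set side by side. In ganglionic eminence progenitor-like cells Sox11 was 2.76-fold (2.66 to 2.86) and Sox4 2.16-fold (1.96 to 2.38) higher than in radial glia-like cells, and Sox3 2.89-fold (2.41 to 3.49), Sox9 1.87-fold (1.7 to 2.05) and Sox6 1.79-fold (1.52 to 2.11) lower. The Sox11 ratio was 2.84 in the first stretch and 1.9 in the second. Eminence clusters 6 and 16 had 319 and 178 cells in the first stretch and 14 and 17 in the second. These 2 and 3 members stood against 9.76% and 12.6% of 8984 genes. Sox2 and Sox1 were 1.24 and 1.41 times as high and not called, and Sox21 was 0.947 times as high (0.821 to 1.09). Sox2ot, the noncoding gene over Sox2, was 2.64-fold higher (2.12 to 3.3), a larger ratio than that of Sox2 with no overlap of the intervals. Of 6 measured SoxC partners and targets 3 were higher and 1 lower. The Sox11, Sox9 and Sox3 levels were uneven within the ventral class, as given above for its Dlx2-led and Olig2-led clusters. The part of cells already becoming neurons in the SoxC difference was not tested. In the second stretch Sox9 and Sox6 were 1.38 and 1.39-fold lower, short of 1.5-fold. The Sox6 call was kept in 10 of 12 and the Sox9 call in 11 of 12 alternatives, the other 3 in all 12. Of 4 measured SoxE partners and targets 3 were lower, with a median log2 ratio of -0.89 against -0.04 over all genes. Nkx2-1, a medial eminence factor and class marker, was 16-fold higher, and Lhx6, which acts after it, 6.52-fold higher. Neurog2 and Fezf2, dorsal factors, were 7.37-fold and 5.59-fold lower.

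On the ventral side, striatal neuron-like cells had 7 members lower and the 3 SoxC genes higher than ganglionic eminence progenitor-like cells. The medial eminence factor Nkx2-1 was among the leading genes of progenitor cluster 6. Whether these progenitors give rise to these neurons was not tested. Sox3 was 32.9-fold lower (8.95 to 274, 2 UMIs in striatal neuron-like cells) and Sox21 19.6-fold lower (9.83 to 45.7). Sox9 and Sox6 were 3.67-fold (2.9 to 4.68) and 3.34-fold (2.26 to 5.1) lower, and Sox2, Sox1 and Sox5 1.82, 1.72 and 1.67-fold lower. Sox12 was 1.96-fold (1.58 to 2.44), Sox11 1.69-fold (1.64 to 1.74) and Sox4 1.62-fold (1.49 to 1.77) higher. The second stretch held 20 of the 298 striatal neuron-like cells and 14 and 17 cells of progenitor clusters 6 and 16. There Sox1 was 3.22-fold lower and Sox11 and Sox4 3.63 and 2.64-fold higher, against 1.67, 1.61 and 1.56-fold in the first stretch. So 3 members were higher and 7 lower, with a median log2 ratio of -0.82, against 17.3% and 24.9% of 7978 genes. Sox11 was called in 6 of 10 and Sox4 in 5 of 10 alternatives, and Sox5 in 7 of 9. The Sox12, Sox3, Sox21, Sox9, Sox6, Sox2 and Sox1 calls were kept in every alternative that gave a ratio. Of 12 measured SoxB1 partners and targets 9 were lower, Hes5 by 22.8-fold (12.3 to 47.7), and Pou3f1 was 5.82-fold higher. Nkx2-1 was 14.4-fold lower (7.75 to 30.4). All 4 measured SoxE partners and targets were lower. Foxp2, a factor of striatal neurons as well as of deep layers, was 9.4-fold higher (7.25 to 12.3).

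Between excitatory neurons and interneurons 4 members differed by over 10-fold. Sox6 was 22-fold (17.8 to 27.5), Sox1 16.7-fold (13.7 to 20.6) and Sox2 15.5-fold (13.1 to 18.4) higher in Sst and Lhx6 interneuron-like cells, and Sox5 10.6-fold lower (8.86 to 12.8). In the first and second stretch the Sox6 ratio was 20.5 and 22.1, the Sox1 ratio 12.8 and 28.9, and Sox5 was 13.8 and 7.83-fold lower. Of the excitatory cells, the deep layer neuron-like ones had 1301 CPM of Sox5 and the further cluster 448 CPM. Interneuron-like cells had 106 CPM. All 4 calls held in 11 of 11 alternatives, and they were 3 higher and 1 lower of 8 measured members, against 10.6% and 16.1% of 9453 genes. Among all measured genes the Sox6 ratio lay at percentile 99.6, the Sox1 and Sox2 ratios at 99.4 and the Sox5 ratio at 0.54. Sox3 and Sox21 had under 50 UMIs over both classes, and Sox4, Sox11, Sox12 and Sox9 were within 1.5-fold. Sox2ot was 15.9-fold higher (12.1 to 21.2). The excitatory levels of Sox2 and Sox6 were 11.9% and 16.3% of those in all cells, where microglia-like cells had 10.3% and 12.1% on 2 and 1 UMIs. Sox2ot stood at 12.8 CPM in excitatory and 42.6 CPM (3 UMIs) in microglia-like cells, and the part of free RNA in these ratios was not tested. The listed interneuron partners of SoxD, all of those measured being class markers, were 5 of 5 higher, Sst by 79.5-fold and Lhx6 by 60.1-fold. The 5 deep layer partners, all class markers as well, were all lower, Fezf2 by 13.1-fold and Tbr1 by 12.8-fold.

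Within the excitatory neuron-like class the layer genes were then read cell by cell, after thinning each cell to 1000 UMIs. Fezf2 had a UMI in 31.3% (28 to 34.8) of the 731 cells with a Sox5 UMI and in 20.1% (16.6 to 24.1) of the 467 without. Bcl11b was in 74% (70.7 to 77.2) and 56.3% (51.7 to 60.9). Fezf2 and Bcl11b, factors of subcerebral projection neurons, were thus found more often with Sox5, with intervals apart. For Tbr1 the shares were 52.8% (49.1 to 56.5) and 47.5% (42.9 to 52.2), with overlapping intervals. The class joins the deep layer clusters and 1 other cluster, and the part of that mix in these differences was not tested.

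Co-detection was read for 26 pairs in all, and the intervals overlapped in the other 24. In radial glia-like cells Sox9 was in 44.9% (38.7 to 51.2) of cells with a Sox2 UMI and 45.7% (40.4 to 51) of those without, and Sox3 in 22% (17.1 to 27.7) and 20.2% (16.1 to 24.7). In intermediate progenitor-like cells Sox4 had a UMI in 62.2% (50.1 to 73.2) of cells with Sox2 and 68.5% (62.8 to 73.7) of those without, so no exclusion of the progenitor and the neuronal factor was detectable at this depth. In interneuron-like cells Lhx6 was in 40.3% (32.1 to 48.9) of cells with Sox6 and 54.3% (48.7 to 59.8) of those without, the widest gap among the overlapping pairs. At 1000 UMIs a gene at the level of Sox2 in radial glia-like cells was seen in only 41.6% of cells, which limits what such shares can show.

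Sst and Lhx6 interneuron-like cells were also compared with the Zic and Sp8 cluster, which took the basal forebrain name by its markers. The pair was chosen after the clusters were seen because no cluster took the Sp8 and Adarb2 interneuron name. Sox6 was 3.44-fold higher in Sst and Lhx6 interneuron-like cells (2.72 to 4.4), 3.8 and 5.23-fold in the stretches, and was called in 10 of 10 alternatives. Sox11 was 1.6-fold (1.55 to 1.65) and Sox1 1.52-fold (1.28 to 1.83) higher, called in 4 of 10 and 9 of 10 alternatives, and Sox1 was 2.06 times as high in the first stretch and 0.73 times in the second. Sox9 was 2.07-fold lower (1.29 to 3.36) on 42 and 34 UMIs, and 1.27-fold in the first stretch, kept in 5 of 7 alternatives. Sox2, Sox4, Sox5 and Sox12 were within 1.5-fold, Sox2 at 1.02 times (0.89 to 1.17), with 1.25 and 0.731 in the stretches, where Sox12 had 0.826 and 1.28. So 3 of 8 measured members were higher and 1 lower, against 7.89% and 8.63% of 6454 genes. The listed interneuron partners of SoxD, all of those measured being class markers, were higher in 5 of 5. Npy was higher by 12.9-fold (8.77 to 19.7) and Lhx6 by 12.5-fold. Foxp2 and Pax6 were 6.79-fold (4.22 to 11.4) and 5.71-fold (3.93 to 8.48) lower.

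**Figure D5:**
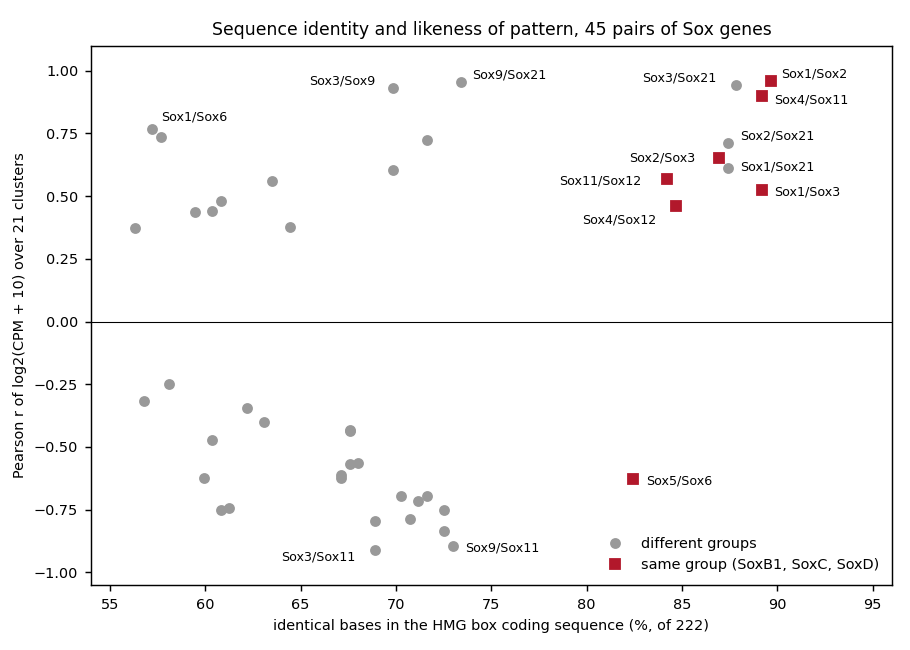
For each of the 45 pairs of Sox genes, identical bases in the HMG box coding sequence (horizontal, % of 222) against the Pearson r of their log2(CPM + 10) over 21 clusters (vertical). Red squares are pairs within SoxB1, SoxC or SoxD and grey circles all other pairs; Sox1 and Sox2 lie at the top right, and Sox5 and Sox6, with 82.4% identity and r of -0.63, lie alone at the bottom right.

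Patterns over the 21 clusters were last set against sequence. These clusters share 1 matrix and its free RNA, and the correlations are descriptions over 21 points. Sox1 and Sox2, the most alike in the box, were also the most alike in pattern (r = 0.96). Sox4 and Sox11 were alike in both as well (89.2% identity, r = 0.90). Sox5 and Sox6 were alike in sequence alone, with r = -0.63 at 82.4% identity, and Sox1 and Sox3 had r = 0.53 at 89.2%. Sox9 and Sox21 come from different groups, with 73.4% identity, and had the second highest likeness (r = 0.95), and Sox3 was close to both (r = 0.93 with Sox9 and 0.94 with Sox21). The most opposed pair was Sox3 and Sox11 (r = -0.91).

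Among 7447 other genes with at least 500 UMIs, those closest in pattern to each member were as follows. For Sox9 they were Fzd8, Notch1 and Gli3 (r = 0.96 each), receptors and an effector of Wnt, Notch and Hedgehog signalling, and for Sox21 Notch1 (r = 0.98), Wee1 and Mcm2 (0.97 each). For Sox3 they were Mt1 (r = 0.99), Dbi and Srsf9 (0.97 each). Sox2 was closest to Cdca7 (r = 0.92), Nck1 and Qk, and Sox1 to Sall2 (r = 0.91), Cdca7 and Wnt7a. Sox11 was closest to the neuronal microtubule gene Dcx (r = 0.96), Nsg2 and Gramd1a (0.95 each), Sox4 to Nol4 (r = 0.92), Fcho1 and Kdm6b, and Sox12 to Rbfox1 (r = 0.92), Jph4 and Gpr85. Sox5 and Sox6 had looser company, Necab3, Polr1d and Id2 (r = 0.87, 0.87 and 0.86) and Npas3, Zfp536 and Gm13889 (r = 0.85, 0.84 and 0.82).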

How the data were processed

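Single cells of 16 samples of mouse forebrain were profiled with the Illumina and Bio-Rad SureCell workflow, per the labels. The authors deposited 1 matrix of raw counts (UMIs per gene and cell). Per the submitters' processing notes the genome build was mm10. Aligner, counter, annotation and cell filter: not given in the sources used here. Cells carry no sample name, so the matrix was treated as 1 sample.

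All cells had over 500 UMIs, and 4 cells with over 10% globin UMIs were set apart. Counts were scaled to 10000 per cell, and 2000 variable genes were chosen without Sox genes, their listed partners, ribosomal, globin and sex-linked genes. These gave 30 principal components and a graph of 15 neighbours, and Leiden clustering at resolution 1 (scanpy 1.11.5, leidenalg 0.10.2, igraph 0.11.9, Python 3.11.15, numpy 2.4.6, pandas 2.3.3, scipy 1.17.1, scikit-learn 1.9.0) drew 24 clusters. A cluster took a class name from 22 marker lists where at least 3 markers were raised 1.5-fold, their mean log2 fold reached 0.5, and 1 of them was among its first 20 genes. It stayed unnamed where another class had more markers among its first 10 genes, or where its first gene was a marker of another class only. A shallow cluster with no own marker among those 10 also stayed unnamed. Cluster 20 met the marker limits but was left unnamed because another class had more markers among its first 10 genes. Doublets were kept, and an alternative left out the highest 5% of scores.

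UMIs were summed per class, with exact Poisson intervals for levels, exact conditional binomial intervals for ratios and Clopper-Pearson intervals for shares. A gene was measured with at least 50 UMIs over both classes and called at 1.5-fold, with no p-value because cells are not replicates. A level of 0 was given as the limit of 3 counts. The ratio script was tested on simulated data.

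All 10 members were named in each comparison, and from 6 lists the 2 genes with the largest ratio in each direction. The 3 genes closest to each member were taken by Pearson correlation of log2(CPM + 10) over clusters of at least 30 cells. Members and lists were chosen with earlier results of these data known. Some results on cortical layers are not reported here.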

Additional observations from a re-analysis of the deposited data

Results flagged for a closer look

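Sox1 from migrating to older excitatory neuron-like cells was singled out because it went opposite ways in the 2 stretches of the matrix. The older cells had 1.61 times the migrating level in the first stretch and 0.494 times in the second. These ratios rest on levels of 24.7 and 39.7 CPM in the first stretch and 16.7 and 8.24 CPM in the second, and the difference was not tested. The stretches carry no label. The older class also differed in makeup between them, as 224 of the 244 cells of its further cluster lay in the second.

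Sox11 was also seen in cells outside the clusters. The 4 cells set apart for globin held 33 Sox11 UMIs, or 2821 CPM. Microglia-like cells had 852 CPM (649.8 to 1096), and all named neuron classes had more than these 4 cells.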

How the results depend on the processing

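The 45 called member ratios gave 561 values under alternatives, of which 560 kept their direction and 1 turned. That was Sox1 between the Zic and Sp8 cluster and the interneuron-like cells, with a log2 ratio of -0.45 in the second stretch, and the cause was not tested. Of the 45 ratios, 32 stayed past 1.5-fold in every alternative that recomputed them. Among the counts of members, 150 stayed within 1.5 times and 32 moved further.

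The count higher from migrating to older excitatory cells was 2 at resolution 2, with 15 components, with 1000 variable genes, with clusters drawn on other UMIs and in each stretch. The count lower there was 1 at resolution 0.5 and in the first stretch, and 2 with other UMIs, at 2-fold and in the second stretch. From ganglionic eminence to striatal cells the count higher was 1 at resolution 0.5, with 1000 genes, with Sox features and with other UMIs, and 0 at 2-fold, and the count lower was 4 at 2-fold and 3 in the second stretch. From the Zic and Sp8 cluster to interneuron-like cells the count lower was 0 at resolution 2, with 1000 genes and in each stretch, and 3 at 10 UMIs, and the count higher was 1 at 2-fold and in the second stretch. From excitatory to interneuron-like cells the count lower was 2 with 15 components, Sox features, doublets left out, equal weight per cell and 10 UMIs. From radial glia-like to ganglionic eminence cells it was 1 at 2-fold and in the second stretch.

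With 15 components the comparisons of ganglionic eminence with striatal cells and of the Zic and Sp8 cluster with interneuron-like cells gave no value. The planned comparisons with upper layer and with Sp8 and Adarb2 cells were not run because no cluster took those names. The replacement for the latter, naming every cluster by its best class and leaving out the Plk1-led radial glia-like cluster were chosen after seeing the data. No paired analysis was possible because the cells carry no sample or replicate number. Thinning to 500 UMIs moved 93 shares beyond their interval, so a share holds for its depth alone.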

Other observations

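Small classes outside the comparisons were read against the 852 CPM of Sox11 (649.8 to 1096) and 114 CPM of Sox4 (49 to 224) in microglia-like cells, the reference for free RNA. Meningeal fibroblast-like cells, 29 in number, had 917 CPM of Sox11 (773 to 1079) and 166 CPM of Sox4 (108 to 243), both overlapping that reference. Choroid plexus-like cells had 1662 CPM of Sox11 and 177 CPM of Sox4 (112 to 266), the latter overlapping it, beside their high Sox9, and 354 CPM of Sox2 (259 to 472). Cajal-Retzius cell-like cells, early marginal zone neurons, had 3883 CPM of Sox11 (3671 to 4103) and 67.6 CPM of Sox2 (42.4 to 102).

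The Sox genes known for other lineages were in few cells at this depth. Sox7, Sox17 and Sox18, genes of blood vessel endothelium, had UMIs in 13, 9 and 13 cells, and Sox10, a factor of oligodendrocyte and neural crest lineages, in 6 cells. Sox30, known in testis, had 13 UMIs in 9 cells.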
